A study of Mus musculus with 16 samples.

Results

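The 36 genes described here encode the enzymes and transporters of glycolysis, the sensors and transcription factors of the response to low oxygen, and established targets of that response. They were taken from a featureCounts table by an exact match of the symbol and make up 36 of its 45664 entries. The list was chosen with earlier results of these data known. All 36 passed the filter on low counts, among 15754 genes tested. The study sequenced messenger RNA of 4 sorted populations of myeloid cells from C57BL/6 mice aged 8 to 10 weeks, with 4 libraries each and 16 in all. All sorts gated on CD45+CD11b+, which was the whole gate for microglia of retina and brain, while CD64 and F4/80 were added for cornea macrophages, and CD115 and Ly6C for monocytes of bone marrow. Each library of cornea macrophages and of retinal microglia stood for 10 pooled mice. The mice were untreated as far as the labels say, so the comparisons are between cells of different tissues. Titles of some libraries carry different number ranges within a population, but no label says what these count or that the libraries of a population came from separate animals, so the p-values measure only the spread between these libraries, which may be technical. For the 8 libraries of brain microglia and monocytes 1 text field names retinal microglia, and the source field was followed instead.

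Isolation differed between tissues. Corneae were digested with collagenase D at body temperature under shaking, whereas retinae were dissociated mechanically in cold buffer, and this difference cannot be told apart from the difference in cell type. Levels are given as CPM, the usual unit of counts relative to library size, with the size scaled by trimmed mean of M-values (TMM). Values of the 4 libraries of a population are listed in the order of replicates 1 to 4, an order that only names them. Microglial markers summed to 24154 to 29237 CPM in microglia of the retina and 36624 to 40848 CPM in those of the brain, against at most 927 CPM in the other populations. Depth was 8677418 to 21756558 counts per library. The scaling factors were 0.661 to 0.705 in cornea macrophages and 1.07 to 1.25 in the other libraries. Without these factors the median of all genes moved by -0.79, -0.67 and -0.67 on the log2 scale in cornea macrophages against retinal microglia, brain microglia and monocytes, and by 0.12 and 0.12 in retinal microglia against brain microglia and monocytes. In these bulk libraries fewer expressing cells and less RNA per cell cannot be told apart.

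Glycolysis splits glucose into pyruvate in the cytosol. Glucose enters through transporters of the Slc2a family, hexokinase traps it as a phosphate ester, phosphofructokinase makes the committed step, and the lower steps yield ATP, NADH and pyruvate, which lactate dehydrogenase reduces to lactate for export. In normal oxygen, prolyl hydroxylases of the Egln family mark the alpha subunits of hypoxia-inducible factor (HIF) for destruction. In low oxygen the subunits persist and bind hypoxia response elements, whose core reads ACGTG or GCGTG, next to genes of glucose uptake, glycolysis, mitophagy and angiogenesis. Macrophages also raise HIF and glycolysis on inflammatory activation.

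Each pairwise comparison had members higher and members lower, so the members did not all shift together. The most one-sided was retinal against brain microglia, with 9 (25%) higher and 1 (2.78%) lower, against 6.95% and 3.6% of all genes. Sets of members were high in some populations and low in others, often with different isozymes of the same enzyme. Adm, Hilpda, Ndrg1, Eno2, Slc2a1, Slc2a6, Hk3 and Hif1a were higher in cornea macrophages than in each of the other 3 populations, and Ldhb, Pdk1, Pfkl, Pfkm, Pfkfb4, Eno1, Slc16a3, Egln1 and Bnip3l were lower there than in each. Monocytes exceeded the other 3 in Eno1, Gpi1, Pgam1, Pfkfb4 and Bnip3l, and fell below them in Slc2a1, Pfkfb3, Eno2, Slc16a1 and Hilpda. A gene counted here had an adjusted p under 0.05 in edgeR's quasi-likelihood test in all 3 comparisons. Some of these calls were lost when 1 library was left out, in part with little change in the log2 fold change. For cornea macrophages against monocytes, Pfkm was lost without cornea replicate 1 or, in turn, monocyte replicates 1, 2 or 3 (log2 fold change -1.33 to -1.18, edgeR adjusted p 0.0511 to 0.0732, in place of -1.35 and 0.0274). For brain microglia against monocytes, Eno2 was lost without brain replicate 3 (log2 fold change 4.41, edgeR adjusted p 0.0587, in place of 6.05 and 0.0121) and Bnip3l without brain replicate 4 or, in turn, monocyte replicates 1 or 4 (log2 fold change -0.31 to -0.30, edgeR adjusted p 0.0746 to 0.0850, in place of -0.36 and 0.0257).

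Those rules took 8 of the 36 members (22.2%) as higher in cornea macrophages, where 18.6% of all genes tested were taken, and 9 (25%) as lower, against 17.2%. In monocytes 5 members (13.9%) were higher, against 12.8% of all genes, and 5 (13.9%) lower, against 13.1%. The monocyte shares, and that of members higher in cornea macrophages, were near those of all genes. Brain microglia had no member above all others (background 1.47%) and 6 (16.7%) below them (background 3.08%), namely Slc2a6, Gpi1, Pfkp, Pkm, Ldha and Ndrg1. Of these, the call of Ldha against cornea macrophages was lost when libraries were scaled by total counts. Retinal microglia had Aldoc alone above the other 3 (background 1.64%) and none below (background 0.768%). The call of Aldoc against cornea macrophages was lost without retinal replicates 1 and 4 (edgeR adjusted p = 0.482). By mean CPM, 16 members had their highest level in cornea macrophages and 13 their lowest in brain microglia.

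In the pairwise comparisons, 14 members were higher and 13 lower in cornea macrophages than in retinal microglia, where 30.9% of all genes were higher and 35.1% lower. Scaling by total counts alone gave 11 and 19 (18.6% and 53.9% of all genes). Against brain microglia 17 members were higher and 11 lower in cornea macrophages (background 33.8% and 33.1%), or 15 and 15 by total counts (22.6% and 48.3% of all genes). Against monocytes the counts were 11 and 12 (background 32.2% and 31.1%), or 9 and 17 by total counts (22.2% and 47.8% of all genes). Retinal microglia had 9 members higher and 1 lower than brain microglia (background 6.95% and 3.6%). Against monocytes, retinal microglia had 14 higher and 14 lower (background 32.2% and 27.1%), and brain microglia 10 higher and 15 lower (background 28.5% and 27.4%). The comparisons share libraries, so their counts are not independent. In cornea macrophages against brain microglia the median log2 fold change was 0.73 over the members and 0.00 over all genes. It was 0.35 against 0.05 in retinal against brain microglia, and -0.23 against 0.04 in brain microglia against monocytes. Cornea macrophages had 0.19 against -0.12 in the comparison with retinal microglia and 0.15 against 0 in that with monocytes. Retinal microglia against monocytes had -0.02 against 0.12. Placing genes with a population at 0 counts at the bound described below left these medians as they were.

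**Figure D1:**
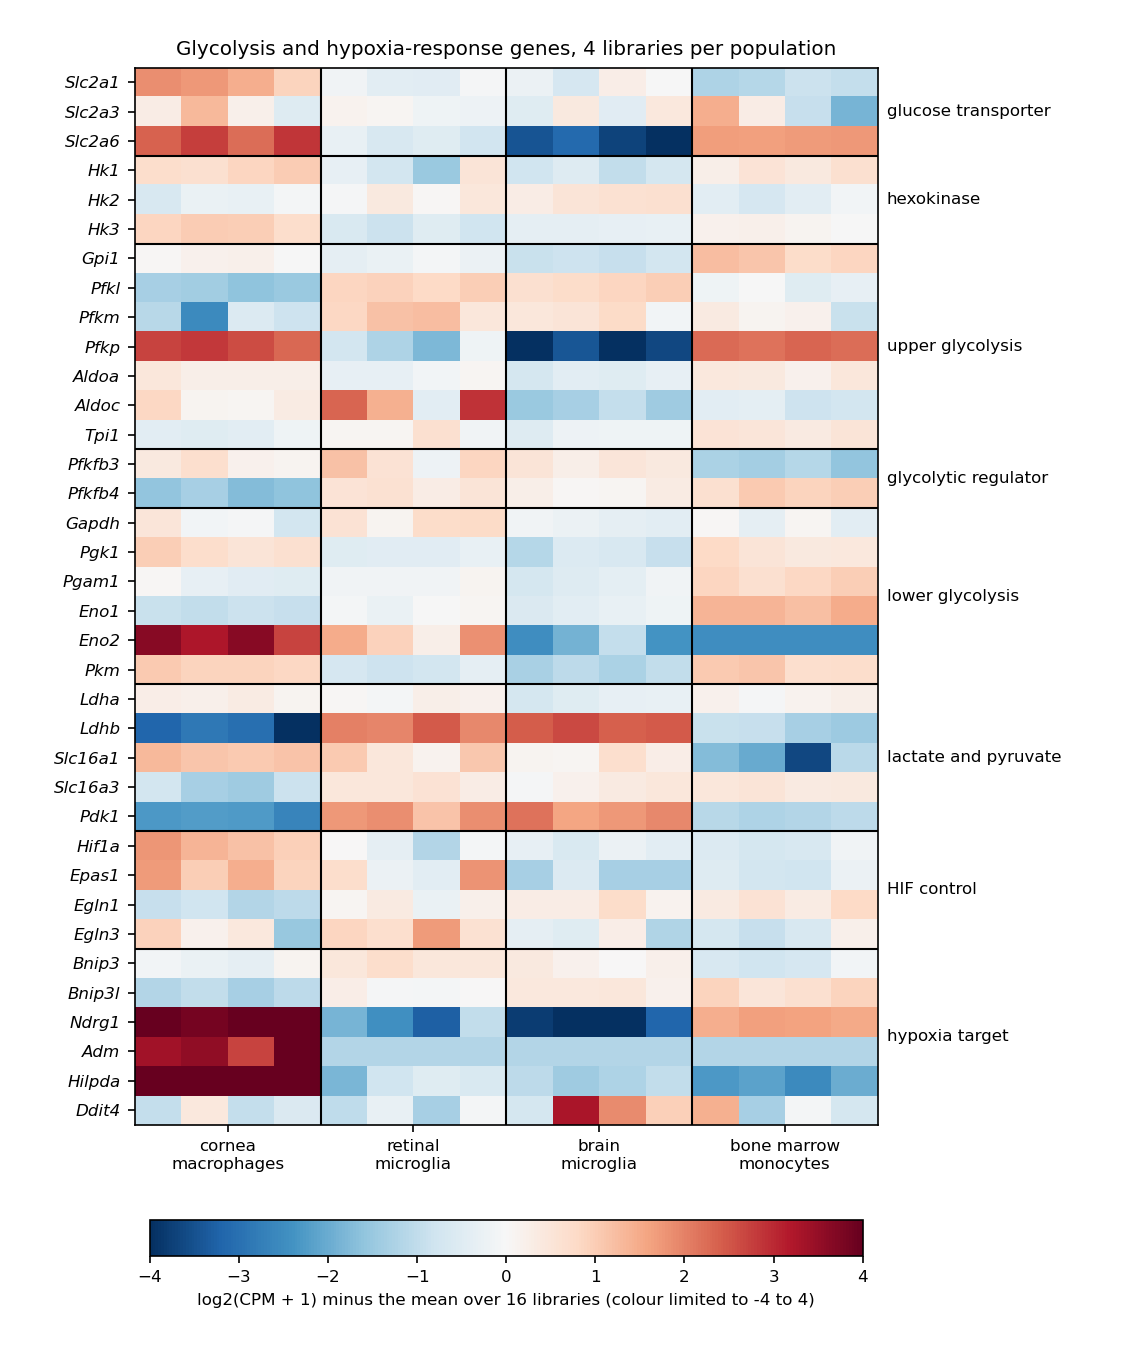
Level of each of the 36 genes (rows, ordered by role) in each of the 16 libraries (columns, grouped by population), coloured by log2(CPM + 1) minus the mean of the gene over all libraries, with the colour limited to -4 to 4. Hilpda, Ndrg1, Eno2 and Adm are high in the 4 cornea libraries, Ldhb and Pdk1 in the 8 microglial libraries, and Eno1 and Gpi1 in the 4 monocyte libraries.

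**Figure D2:**
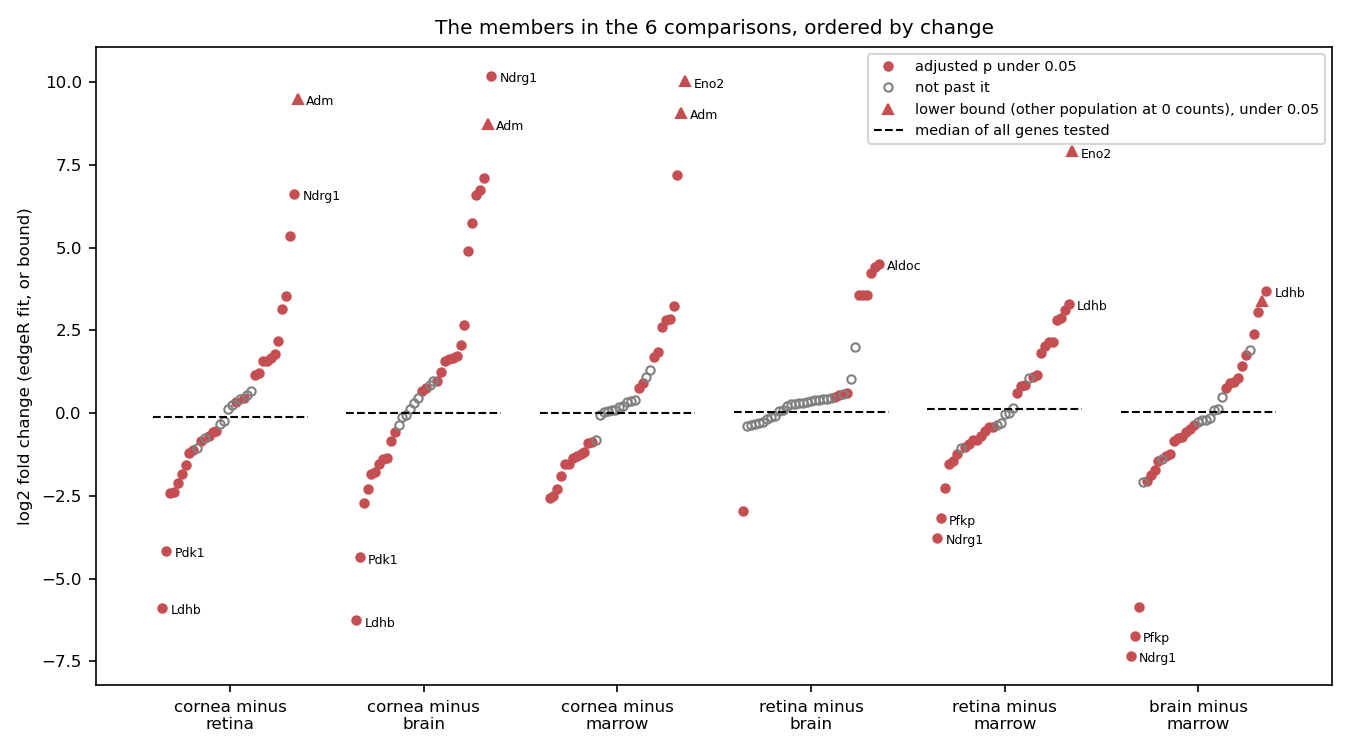
Log2 fold change of the members in each of the 6 comparisons, ordered by size within a comparison, with filled circles for an edgeR adjusted p under 0.05 and a dashed line at the median of all genes tested. Triangles are lower bounds for Adm and Eno2 where the other population had 0 counts, and Adm is left out of the comparisons where both populations had 0. In retinal against brain microglia 26 of the 36 members are open circles or left out.

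Of the 6 hypoxia targets 3, namely Adm, Hilpda and Ndrg1, were higher in cornea macrophages than in each other population, by a rule that took 18.6% of all genes. Adm, which encodes the vasodilator peptide adrenomedullin, stood at 22.1, 25.1, 13.5 and 47.0 CPM in cornea macrophages and had 0 counts in the other 12 libraries. Against the floor of 3 counts over a population, Adm was at least 722-fold higher in cornea macrophages than in retinal microglia, 428-fold than in brain microglia and 539-fold than in monocytes, with edgeR adjusted p from 5.55e-06 to 8.19e-06. The gene spans chr7:110627661-110629820 in the GENCODE annotation of GRCm38. Cornea replicate 4 had the highest level and replicate 3 the lowest.

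Hilpda, a lipid-droplet protein that restrains fat breakdown, stood at 289.9, 262, 225 and 295 CPM in cornea macrophages and 2.76, 6.68, 8.39 and 7.76 CPM in retinal microglia. Brain microglia held 5.39, 3.96, 4.66 and 5.72 CPM and monocytes 1.71, 1.99, 1.28 and 2.34 CPM. No library of another population reached the lowest cornea library. The difference from retinal microglia was 41.3-fold (log2 fold change 5.37, SE 0.27, edgeR adjusted p = 3.01e-11), and that from monocytes 145-fold (log2 fold change 7.18, SE 0.31, edgeR adjusted p = 4.25e-12).

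Ndrg1, a cytoplasmic protein induced by stress and low oxygen, stood at 374, 233, 336 and 409 CPM in cornea macrophages and 43.9, 49.4, 48.2 and 45.6 CPM in monocytes. It was nearly absent from microglia, with 3.47, 1.95, 0.699 and 7.32 CPM in the retinal libraries and 0.171, 0, 0 and 0.797 CPM in the brain libraries. The cornea libraries lay above all others, and the monocyte libraries above all microglial ones. Cornea macrophages exceeded monocytes 7.22-fold (log2 fold change 2.85, SE 0.44, edgeR adjusted p = 2.52e-05) and retinal microglia 98.4-fold (log2 fold change 6.62, SE 0.54, edgeR adjusted p = 1.01e-08). Without retinal replicate 4 the log2 fold change against retinal microglia rose to 7.43, and without brain replicate 4 that against brain microglia rose from 10.19 to 12.20.

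Bnip3 and Bnip3l, which mark mitochondria for autophagy, did not follow the other targets. Bnip3l stood at 44.4, 51.5, 39.6 and 49.2 CPM in cornea macrophages, 123, 99.0, 95.8 and 104 in retinal microglia, 137, 138, 141 and 114 in brain microglia and 188, 144, 159 and 189.5 in monocytes. Each cornea library lay below each other library, and the difference from monocytes was the largest (log2 fold change -1.88, SE 0.14, edgeR adjusted p = 2.31e-09). Bnip3 stood at 27.5 ± 3.97 (mean ± SD, n = 4), 44.5 ± 4.26, 35.3 ± 3.65 and 20.9 ± 4.99 CPM in the same order of populations, lower in cornea macrophages than in retinal microglia (log2 fold change -0.69, SE 0.17, edgeR adjusted p = 0.00168). Of the 50-base windows in the Bnip3 transcript, 62.4% also occur in other annotated genes, and of those of Bnip3l 25.1%, so counts of both are uncertain. Ddit4, a stress-induced brake on mTOR signalling, stood at 2.23, 48.5, 18.2 and 9.05 CPM in brain microglia and at most 13.0 CPM elsewhere, with brain replicate 2 far above the others. Its difference between cornea macrophages and brain microglia had a log2 value of -2.71 and an edgeR adjusted p of 0.00913, which became -1.72 and 0.0692 without that library.

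Markers of epithelium, keratocytes and stress were also higher in the cornea libraries. The 12 listed immediate-early and heat-shock genes known to respond to dissociation had counts in every population. In the cornea libraries they summed to 25729.9, 33448, 26873 and 22611 CPM, against 412 to 2333 CPM elsewhere. All 9 epithelial markers had counts in cornea macrophages and summed to 1463, 378, 653 and 236 CPM, and all 8 keratocyte markers, with 1396, 1499, 2605 and 2252 CPM. Both lists stayed at or below 3.97 CPM in every other library. The part of these lists in the cornea levels was not tested.

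**Figure D3:**
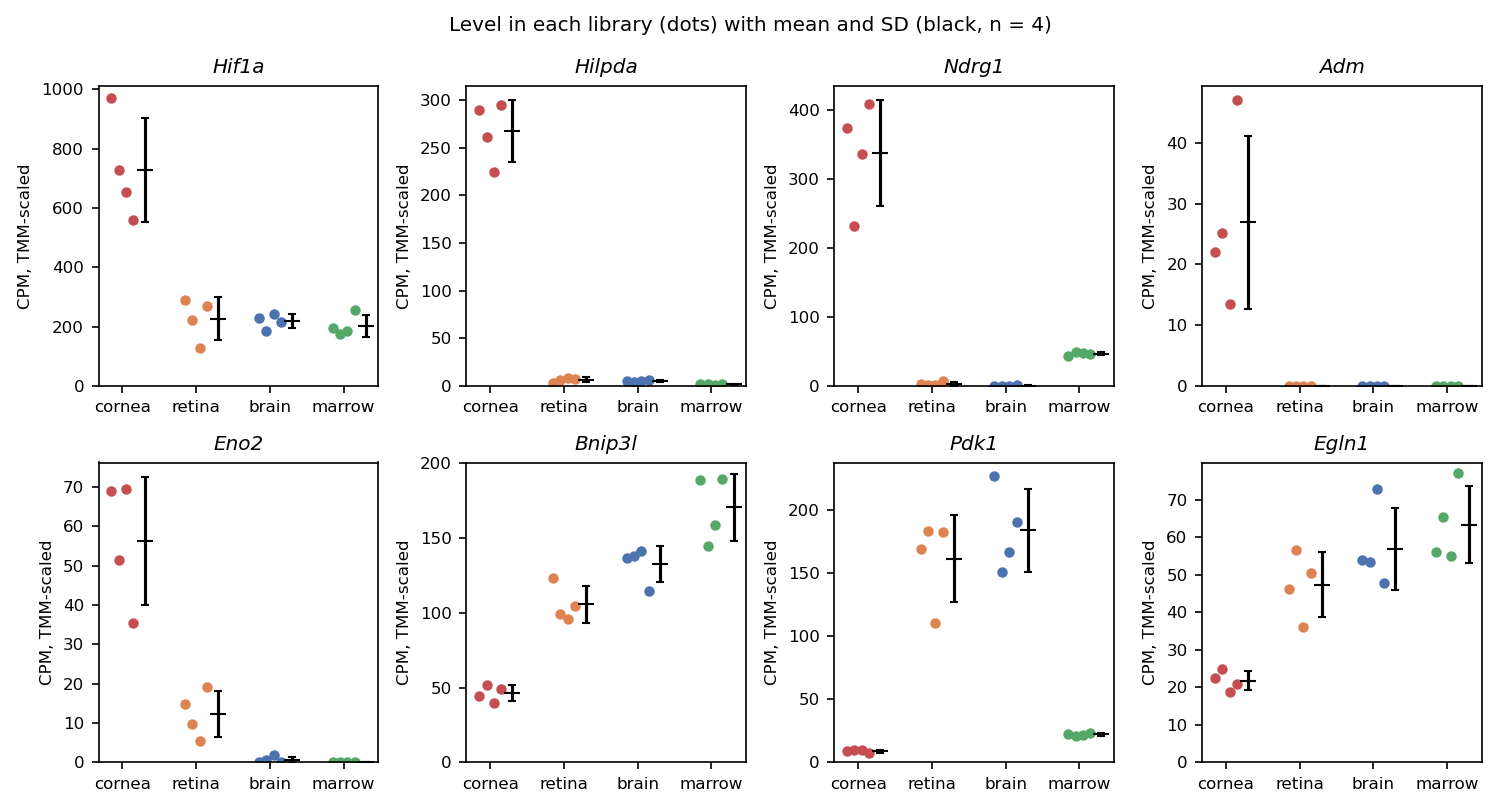
CPM of Hif1a, Hilpda, Ndrg1, Adm, Eno2, Bnip3l, Pdk1 and Egln1 on linear axes, with 1 dot for each library and the mean and SD of each population (n = 4) in black. The 4 cornea libraries lie above all others for Adm (13.5 to 47.0 CPM against 0) and Hilpda (225 to 295 CPM), and below all others for Bnip3l.

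The promoters of members that moved the same way in cornea macrophages against both microglia were searched for the hypoxia response element core, ACGTG or GCGTG on either strand. Of the 32 members present in the RefSeq promoter table for GRCm38.p6, 29 held a core in the 250 bases before an annotated start, or 90.6%, against 49 of 71 other pathway genes (69.0%) and 41.5% of all 27025 genes in the table. A gene with several annotated starts counted if any of them held a core. Counted by start instead of by gene, the shares were 80.4%, 62.0% and 38.6%. A match describes letters and not a bound site, and the members include textbook targets of HIF. Shown are 6 promoters with a core, of the genes that differed most among those with at most 30 bases of the window inside the annotated gene, 5′ to 3′ on the strand of the gene, with core letters in capitals (CACGT or CACGC where the core lies on the other strand). Adm (chr7:110627407-110627656, plus strand), Slc2a6 (chr2:27027999-27028248, minus strand) and Pfkp (chr13:6648772-6649021, minus strand) were higher in cornea macrophages than in both microglia, and Pdk1 (chr2:71872974-71873223, plus strand), Ldhb (chr6:142507958-142508207, minus strand) and Pfkm (chr15:98092339-98092588, plus strand) lower.
Adm promoter: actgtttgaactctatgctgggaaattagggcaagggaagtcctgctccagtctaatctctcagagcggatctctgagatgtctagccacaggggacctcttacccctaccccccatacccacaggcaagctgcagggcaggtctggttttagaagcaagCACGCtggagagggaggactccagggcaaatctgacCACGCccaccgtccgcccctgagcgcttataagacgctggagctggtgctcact
Slc2a6 promoter: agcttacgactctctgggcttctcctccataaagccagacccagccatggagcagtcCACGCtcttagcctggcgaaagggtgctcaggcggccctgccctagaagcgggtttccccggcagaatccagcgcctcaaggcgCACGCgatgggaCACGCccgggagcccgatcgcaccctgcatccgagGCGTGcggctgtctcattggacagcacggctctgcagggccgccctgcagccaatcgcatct
Pfkp promoter: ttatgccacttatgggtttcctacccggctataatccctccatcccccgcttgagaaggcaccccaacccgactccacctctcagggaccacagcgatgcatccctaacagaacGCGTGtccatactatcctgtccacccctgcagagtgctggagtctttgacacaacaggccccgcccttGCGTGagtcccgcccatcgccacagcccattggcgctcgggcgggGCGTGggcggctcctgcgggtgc
Pdk1 promoter: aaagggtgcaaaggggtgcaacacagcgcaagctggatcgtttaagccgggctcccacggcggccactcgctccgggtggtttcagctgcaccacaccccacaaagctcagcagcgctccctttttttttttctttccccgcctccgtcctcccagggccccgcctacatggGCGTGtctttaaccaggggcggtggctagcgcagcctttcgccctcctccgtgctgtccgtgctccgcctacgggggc
Ldhb promoter: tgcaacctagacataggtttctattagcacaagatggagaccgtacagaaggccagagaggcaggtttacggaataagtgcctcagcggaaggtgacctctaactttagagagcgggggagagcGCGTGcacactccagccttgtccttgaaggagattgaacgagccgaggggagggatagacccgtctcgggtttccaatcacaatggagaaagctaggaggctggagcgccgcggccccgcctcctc
Pfkm promoter: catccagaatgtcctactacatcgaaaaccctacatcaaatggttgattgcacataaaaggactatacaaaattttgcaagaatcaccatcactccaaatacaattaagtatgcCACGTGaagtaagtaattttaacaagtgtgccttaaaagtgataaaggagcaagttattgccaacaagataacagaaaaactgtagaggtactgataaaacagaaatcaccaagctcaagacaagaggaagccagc

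The promoters shown held 2 cores in Adm, 4 in Slc2a6, 3 in Pfkp and 1 each in Pdk1, Ldhb and Pfkm, where overlapping cores count as 1. They were shown because they held a core, so they cannot compare the directions. Of the genes not shown, the higher ones held 0 (Hilpda, Eno2, Pkm, Hk1), 1 (Hk3) or 2 (Hif1a, Slc2a1, Pgk1) at the most upstream start. The lower ones held 1 (Pfkl, Pfkfb4) or 2 (Slc16a3, Egln1). Among the 20 members called at least 2-fold in the same direction against both microglia, 18 were in the table and 17 held a core before some annotated start.

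Among the HIF control genes, the transcript of Hif1a, the oxygen-regulated subunit itself, was highest in cornea macrophages and that of the hydroxylase Egln1 lowest there. Egln2, a hydroxylase outside the members, had its highest mean there, at 100.0 ± 20.6 CPM (SD, n = 4) against means of 44.3 to 51.8 CPM elsewhere. Hif1a stood at 969, 729, 653 and 559 CPM in cornea macrophages and 289, 223, 127 and 268 CPM in retinal microglia. It stood at 229, 186, 241 and 214 CPM in brain microglia and 195, 176, 184 and 257 CPM in monocytes. Every cornea library exceeded every other library. The difference was 3.21-fold against retinal microglia (log2 fold change 1.68, SE 0.22, edgeR adjusted p = 4.84e-06) and 3.58-fold against monocytes (log2 fold change 1.84, SE 0.23, edgeR adjusted p = 1.85e-06). Egln1 stood at 22.5, 24.8, 18.9 and 20.8 CPM in cornea macrophages and 46.3, 56.6, 36.2 and 50.5 CPM in retinal microglia, with 54.0, 53.4, 72.9 and 47.8 CPM in brain microglia and 56.0, 65.5, 55.1 and 77.1 CPM in monocytes. Each cornea library was again outside the range of the others, 2.62-fold below brain microglia on average (log2 fold change -1.39, SE 0.18, edgeR adjusted p = 2.75e-06).

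Epas1, another HIF alpha subunit known mostly from endothelium, was scarce, with 7.13, 4.00, 5.84 and 3.71 CPM in cornea macrophages and 3.07, 1.12, 0.861 and 7.80 CPM in retinal microglia. Brain microglia had 0, 0.711, 0 and 0 CPM and monocytes 0.767, 0.498, 0.456 and 1.13 CPM. Per base of gene model, Hif1a made up 99.2% ± 0.158, 98.6% ± 1.18, 99.9% ± 0.212 and 99.6% ± 0.100 (SD, n = 4) of these alpha subunits in the 4 populations. Epas1 was higher in cornea macrophages than in brain microglia (log2 fold change 4.91, SE 1.03, edgeR adjusted p = 4.76e-04). Without brain replicate 2, the only brain library with counts, the fit gave 9.23. That value sets cornea macrophages against 0 counts, so its size is not measured. Egln3, a hydroxylase induced by HIF in many cells, stood at 4.42, 2.21, 2.77 and 0 CPM in cornea macrophages and 4.17, 3.46, 8.28 and 3.30 CPM in retinal microglia, with at most 2.38 CPM in the others.

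Glucose transporters differed in kind as well as in level. Slc2a1, the widespread transporter GLUT1, stood at 224, 204, 167 and 115 CPM in cornea macrophages and 55.8, 44.8, 44.4 and 59.1 CPM in retinal microglia. It stood at 51.3, 38.2, 73.2 and 60.4 CPM in brain microglia and 25.4, 27.1, 32.8 and 31.1 CPM in monocytes, whose libraries were the lowest. Cornea macrophages were 3.18-fold above brain microglia (log2 fold change 1.67, SE 0.21, edgeR adjusted p = 2.97e-06). Slc2a6, a transporter of lysosomal membranes in macrophages, stood at 203, 269.7, 188 and 292 CPM in cornea macrophages, 126, 123, 130.5 and 131 in monocytes, 31.7, 24.7, 27.6 and 22.7 in retinal microglia and 2.65, 3.65, 2.08 and 0.724 in brain microglia. The 4 populations did not overlap at any step of that order. Cornea macrophages exceeded monocytes 1.87-fold (log2 fold change 0.90, SE 0.24, edgeR adjusted p = 0.00309), a call that ended when libraries were scaled by total counts, and retinal exceeded brain microglia 12.0-fold (log2 fold change 3.58, SE 0.29, edgeR adjusted p = 7.25e-07). Per base of gene model, Slc2a6 made up 58.7% ± 10.3 of the 3 transporters in cornea macrophages, 80.4% ± 1.26 in monocytes, 34.8% ± 4.45 in retinal and 4.40% ± 3.11 in brain microglia (SD, n = 4).

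Slc2a3, the neuronal transporter GLUT3, passed the test in none of the 6 comparisons (adjusted p 0.422 to 0.959 in edgeR). Its monocyte libraries spread from 1.56 to 24.4 CPM. Replicates 1 and 2, the highest for Slc2a3, also had the largest sums of 12 granulocyte markers, at 4873 and 2389.8 CPM against 1032 and 1080.5 CPM. The sums of 8 erythroid markers were 2518, 1645, 476 and 376 CPM in the 4 monocyte libraries, also larger in replicates 1 and 2. In every other library the granulocyte sum was at most 18.4 CPM. Without these 2 monocyte libraries, Slc2a3 was higher in brain microglia than in monocytes, with a log2 fold change of 1.66 in place of -0.26. The parts of granulocyte and erythroid RNA were not tested apart from each other.

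The hexokinases shifted between types while all 3 were present everywhere. Hk3, the hexokinase of myeloid cells, stood at 243, 272, 264 and 216 CPM in cornea macrophages, 152, 154, 145 and 133 in monocytes, 104, 104, 106 and 109 in brain microglia and 87.0, 73.8, 95.7 and 77.2 in retinal microglia. No populations overlapped, and cornea macrophages exceeded retinal microglia 2.98-fold (log2 fold change 1.58, SE 0.11, edgeR adjusted p = 2.33e-09). Against monocytes Hk3 was 1.70-fold higher in cornea macrophages, with an edgeR adjusted p of 1.34e-05 that was lost when libraries were scaled by total counts. Hk2, the insulin- and HIF-responsive hexokinase bound to mitochondria, ran the other way, with 106, 137, 133 and 156 CPM in cornea macrophages and 201, 235, 249.9 and 258 CPM in brain microglia. All brain libraries lay above all cornea libraries (log2 fold change -0.83, SE 0.16, edgeR adjusted p = 2.01e-04). Hk2 took 53.0% ± 2.58 of hexokinase transcripts per base in brain microglia and 51.0% ± 5.31 in retinal microglia, but 20.6% ± 2.95 in cornea macrophages and 28.1% ± 4.01 in monocytes (SD, n = 4). Hk1, the housekeeping form, stood at 143, 136, 161 and 179.8 CPM in cornea macrophages and 50.5, 60.5, 43.8 and 53.6 CPM in brain microglia, 2.97-fold apart (log2 fold change 1.57, SE 0.29, edgeR adjusted p = 1.39e-04). It stood at 69.9, 52.9, 30.6 and 125 CPM in retinal microglia, whose libraries spread widest, and 103, 129, 115 and 138 CPM in monocytes.

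Phosphofructokinase, the committed step, changed its main isozyme between populations. Pfkp, the platelet type, stood at 245, 267, 230.2 and 185 CPM in cornea macrophages and 179, 170.2, 191 and 178 CPM in monocytes. It stood at 21.6, 15.2, 9.84 and 32.5 CPM in microglia of the retina and 0.771, 2.54, 1.39 and 2.03 CPM in those of the brain. Both microglial populations lay below both others without overlap. Cornea macrophages exceeded brain microglia 138-fold (log2 fold change 7.11, SE 0.38, edgeR adjusted p = 4.64e-11). Pfkl, the liver type, stood at 25.4, 24.5, 21.0 and 23.0 CPM in cornea macrophages and 57.6, 65.2, 47.0 and 52.0 CPM in monocytes. It stood at 119.8, 124, 115 and 130.3 CPM in microglia of the retina and 102, 109.5, 119 and 131 CPM in those of the brain, so that both microglia were here above both others (log2 fold change -2.38, SE 0.13, edgeR adjusted p = 8.20e-11 for cornea macrophages against retinal microglia). Pfkm, the muscle type, stood at 2.38, 0.255, 4.07 and 3.18 CPM in cornea macrophages and 12.0, 15.7, 16.2 and 9.13 CPM in retinal microglia (log2 fold change -2.41, SE 0.51, edgeR adjusted p = 5.40e-04). Brain microglia held 8.99, 9.44, 11.5 and 5.87 CPM and monocytes 8.35, 6.87, 7.20 and 2.98 CPM.

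Per base of gene model, Pfkp made up 79.9, 83.4, 79.9 and 75.8% of phosphofructokinase in the 4 cornea libraries and 54.5, 51.4, 60.8 and 59.5% in the monocyte libraries. The same share was 6.84, 4.59, 3.20 and 9.55% in retinal and 0.312, 0.952, 0.473 and 0.673% in brain microglia. Pfkl made up 80.8% ± 0.857 in retinal and 89.0% ± 2.77 in brain microglia, against 17.4% ± 1.97 in cornea macrophages (SD, n = 4). Of the 50-base windows in the Pfkp transcript 17.1% also lie in the neighbouring gene Pitrm1.

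**Figure D4:**
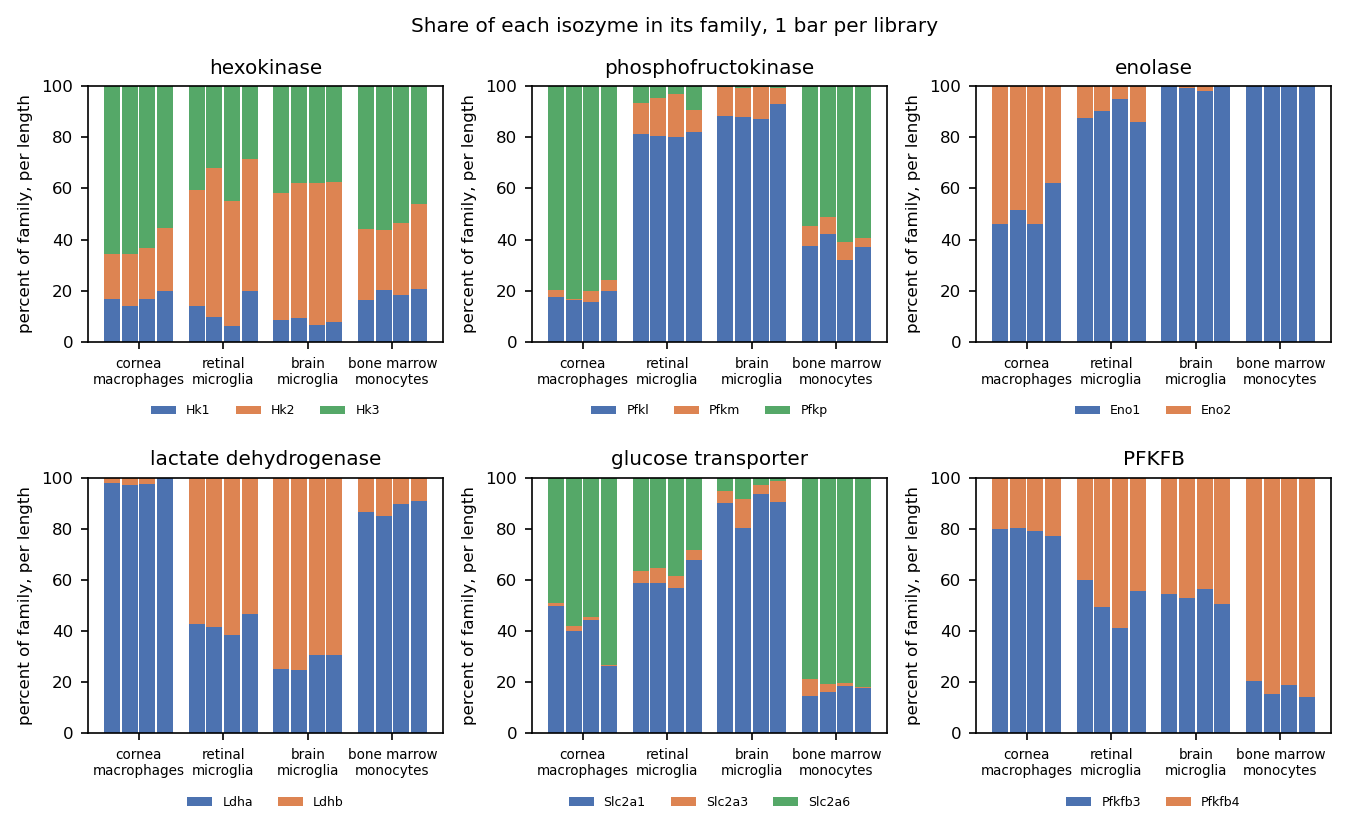
Share of each isozyme within its family as a percentage of the counts per base of gene model, with 1 stacked bar for each of the 16 libraries. Pfkp takes 75.8 to 83.4% of phosphofructokinase in cornea macrophages and under 1% in brain microglia, and Ldhb takes 69.4 to 75.4% of lactate dehydrogenase in brain microglia.

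The bifunctional enzymes Pfkfb3 and Pfkfb4, which set the level of the fructose bisphosphate that stimulates phosphofructokinase, also changed in their ratio. Pfkfb3, the form with the strongest kinase activity, stood at 123, 151, 107 and 101 CPM in cornea macrophages, 212, 143, 81.2 and 172 in retinal microglia, 134, 111, 132 and 124 in brain microglia and 39.1, 36.3, 42.4 and 31.3 in monocytes. The monocyte libraries stood apart from all others, 3.36-fold below brain microglia (log2 fold change 1.75, SE 0.22, edgeR adjusted p = 3.81e-06). Pfkfb4 stood at 20.0, 24.2, 18.1 and 19.5 CPM in cornea macrophages, 91.1, 95.0, 75.2 and 88.3 in retinal microglia, 72.7, 64.1, 65.9 and 77.8 in brain microglia and 97.6, 128, 116 and 122 in monocytes. The cornea libraries were below all others, 5.67-fold below monocytes (log2 fold change -2.50, SE 0.14, edgeR adjusted p = 7.50e-11). The share of Pfkfb3 in the pair per base was 79.1% ± 1.43 in cornea macrophages and 17.3% ± 2.99 in monocytes (SD, n = 4).

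The aldolases were dominated by Aldoa, the muscle and ubiquitous form, at 499 ± 41.1 CPM in cornea macrophages, 362 ± 52.6 in retinal microglia, 292 ± 31.8 in brain microglia and 521 ± 45.5 in monocytes (SD, n = 4). Aldoa was lower in brain microglia than in monocytes (log2 fold change -0.83, SE 0.13, edgeR adjusted p = 2.25e-05). Its higher level in cornea macrophages than in retinal microglia (log2 fold change 0.46, edgeR adjusted p = 0.00362) became lower by total counts, at -0.33, and was lost without cornea replicate 1 and retinal replicates 1 and 3, whose titles lack a letter b that the others carry (edgeR adjusted p = 0.0836). Aldoc, the brain form, stood at 19.2, 9.80, 1.99 and 29.2 CPM in retinal microglia and 6.23, 3.32, 3.30 and 4.05 CPM in cornea macrophages. It stood at 0.428, 0.609, 1.09 and 0.507 CPM in brain microglia and 2.03, 2.09, 1.28 and 1.42 CPM in monocytes. Gpi1, which converts glucose phosphate to fructose phosphate, was highest in monocytes, with 179, 163, 128 and 137 CPM, and lowest in brain microglia, with 40.0, 41.9, 39.7 and 44.9 CPM. The libraries did not overlap (log2 fold change -1.86, SE 0.13, edgeR adjusted p = 1.41e-09). Cornea macrophages held 81.4 ± 5.97 CPM and retinal microglia 64.0 ± 4.89 CPM, and their order reversed by total counts (log2 fold change 0.35 and -0.45). Tpi1, which interconverts the triose phosphates, was likewise highest in monocytes, at 83.6 ± 4.43 CPM against 49.6 ± 5.69 CPM in brain microglia (log2 fold change -0.75, SE 0.16, edgeR adjusted p = 6.08e-04).

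In lower glycolysis the enolases differed in their ratio between populations. Eno2, the enolase of neurons, stood at 69.0, 51.6, 69.4 and 35.4 CPM in cornea macrophages and 14.9, 9.70, 5.54 and 19.1 CPM in retinal microglia. It stood at 0, 0.508, 1.88 and 0.0724 CPM in brain microglia and had 0 counts in all monocyte libraries. Cornea macrophages were at least 1041-fold above monocytes against the floor of 3 counts, and 4.57-fold above retinal microglia (log2 fold change 2.19, SE 0.55, edgeR adjusted p = 0.00308). The last call was lost without cornea replicate 1 and retinal replicates 1 and 3, whose titles lack a letter b, at an adjusted p of 0.0602. Against brain microglia the log2 fold change of 6.60 moved to 8.25 without brain replicate 3. Eno1, the common enolase, was highest in monocytes, with 319, 326, 291 and 348 CPM, and stood at 66.9, 63.1, 68.0 and 66.2 CPM in cornea macrophages, 118, 103, 122 and 131 in retinal and 84.3, 94.0, 103 and 109.7 in brain microglia. Its monocyte libraries exceeded all others, 4.86-fold above cornea macrophages (log2 fold change -2.28, SE 0.12, edgeR adjusted p = 2.97e-11). Eno2 made up 54.1, 48.3, 53.9 and 38.0% of the pair per base in the 4 cornea libraries, and 72.2% of the 50-base windows of Eno1 also occur in other genes. Eno1b, the gene that shares most of these windows, was left out of the pair. In cornea macrophages Eno1b averaged 13.5 CPM per kilobase of gene model, against 12.3 for Eno1 and 12.0 for Eno2. The share of Eno2 among enolases is therefore uncertain.

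Pkm, the pyruvate kinase that yields pyruvate and ATP, stood at 637, 573, 576 and 555 CPM in cornea macrophages and 636, 666, 497 and 500.5 CPM in monocytes. Retinal microglia held 192, 173, 185 and 241 CPM and brain microglia 126, 149, 128 and 157 CPM. Both microglia lay below both other populations (log2 fold change 1.57, SE 0.14, edgeR adjusted p = 2.71e-08 for cornea macrophages against retinal microglia). Between cornea macrophages and monocytes Pkm had a log2 fold change of 0.03 that turned to -0.65 by total counts. Pgk1, which makes ATP from bisphosphoglycerate, was 3.10-fold higher in cornea macrophages than in brain microglia, with 31.6, 26.1, 22.9 and 25.1 against 6.51, 10.5, 9.51 and 7.68 CPM (log2 fold change 1.63, SE 0.19, edgeR adjusted p = 8.65e-07). It stood at 10.8, 11.1, 11.0 and 12.3 CPM in retinal microglia and 27.5, 22.9, 20.5 and 21.2 CPM in monocytes. Pgam1, the mutase of the next step, was highest in monocytes, at 41.6 ± 3.95 CPM against 16.9 ± 2.89 CPM in brain microglia (log2 fold change -1.30, SE 0.17, edgeR adjusted p = 5.05e-06). Gapdh, a dehydrogenase of lower glycolysis, was counted at 2.12 to 7.84 CPM in the 16 libraries. Of its 50-base windows 82.5% occur in 222 other annotated genes. How reads with several matches were counted was not given in the sources used here, so its level is uncertain. The same applies to Pgk1, with 68.0% of windows shared, and Pgam1, with 41.5%. The table lists the copies Pgk1-rs7 and Pgam1-ps2 at 33.5 and 30.2 CPM in cornea macrophages. Of the 36 members 16 shared no such window and 13 shared over 10%. Besides those whose share is given here or in other paragraphs, these were Pkm (34.4%), Gpi1 (25.3%), Ndrg1 (14.6%), Aldoa (13.5%), Ldhb (27.0%) and Ldha (16.6%). Their levels carry the same kind of uncertainty.

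Both microglia exceeded both other populations in Ldhb and Pdk1, 2 of the 5 members that handle pyruvate and lactate. Ldhb, the dehydrogenase form that favours lactate oxidation to pyruvate, stood at 138, 134, 189 and 128 CPM in microglia of the retina and 184, 216, 179.6 and 186 CPM in those of the brain. It stood at 2.83, 3.74, 3.23 and 0.398 CPM in cornea macrophages and 17.5, 17.2, 12.9 and 11.6 CPM in monocytes. No library of the latter populations came near the microglia, and cornea replicate 4 was the lowest of all. Cornea macrophages were 76.7-fold below brain microglia (log2 fold change -6.26, SE 0.39, edgeR adjusted p = 2.90e-10), a log2 fold change that became -7.15 with sequencing lane as a term. Monocytes were 12.9-fold below brain microglia (log2 fold change 3.69, SE 0.33, edgeR adjusted p = 4.32e-08). Ldha, the form that favours lactate production, was lowest in brain microglia, with 117, 134, 149.9 and 156 CPM. Retinal microglia held 195, 180.2, 222 and 215 CPM, monocytes 215, 185, 208 and 222 and cornea macrophages 229, 221, 237 and 205. Its difference between brain microglia and monocytes was small (log2 fold change -0.58, SE 0.12, edgeR adjusted p = 4.09e-04). Against retinal microglia and monocytes Ldha in cornea macrophages had log2 fold changes of 0.13 and 0.10, not past the threshold, which turned to -0.66 and -0.57 by total counts. The call of Ldha as higher in cornea macrophages than in brain microglia was lost by total counts (log2 fold change 0.01, edgeR adjusted p = 0.937). Ldhb made up 72.3% ± 3.29 of the pair per base in brain microglia, 57.7% ± 3.54 in retinal microglia, 12.0% ± 2.71 in monocytes, but 2.08% ± 1.19 in cornea macrophages (SD, n = 4).

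Pdk1, which blocks entry of pyruvate into the mitochondrial cycle by phosphorylating pyruvate dehydrogenase, had the same order of population means as Ldhb. It stood at 169.8, 184, 111 and 183 CPM in microglia of the retina and 227, 151, 167 and 191 CPM in those of the brain. Cornea macrophages held 9.29, 9.87, 9.68 and 7.23 CPM and monocytes 22.8, 20.6, 21.8 and 23.6 CPM. None of the populations overlapped except the microglia with each other. Cornea macrophages were 18.0-fold below retinal microglia (log2 fold change -4.17, SE 0.19, edgeR adjusted p = 8.34e-12) and 2.47-fold below monocytes (log2 fold change -1.30, SE 0.18, edgeR adjusted p = 6.66e-06). Pdk1 is a textbook HIF target and was lowest in the population with the highest transcript levels of Hif1a, Adm and Hilpda. The activity of HIF was not tested.

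The lactate exporters were split in a further way. Slc16a1, the carrier MCT1, stood at 47.3, 40.8, 38.9 and 42.1 CPM in cornea macrophages and 39.3, 25.7, 20.6 and 40.3 CPM in retinal microglia. It stood at 20.1, 19.7, 30.4 and 22.6 CPM in brain microglia and 4.92, 3.78, 0.547 and 8.22 CPM in monocytes. The monocyte libraries were below all others, 9.50-fold below cornea macrophages (log2 fold change 3.25, SE 0.44, edgeR adjusted p = 6.46e-06). Slc16a3, the HIF-responsive carrier MCT4, stood at 22.0, 14.1, 13.1 and 19.8 CPM in cornea macrophages, 50.6, 50.3, 55.5 and 45.4 in retinal microglia, 35.5, 41.4, 47.1 and 50.4 in brain microglia and 50.4, 52.9, 47.2 and 48.5 in monocytes. The cornea libraries lay below the rest (log2 fold change -1.55, SE 0.17, edgeR adjusted p = 5.03e-07 against retinal microglia). Slc16a1 made up 75.0% ± 3.41 of the pair per base in cornea macrophages, 42.2% ± 9.52 in retinal microglia, 38.9% ± 3.95 in brain microglia and 9.17% ± 6.44 in monocytes (SD, n = 4).

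Between the microglia of retina and brain, 26 of the 36 members did not pass the test. The 9 higher in retinal microglia were Slc2a6, Pfkp, Aldoc, Eno2, Epas1, Ndrg1, Gpi1, Pkm and Ldha, and Ddit4 was lower. Aldoc showed the largest change, with 19.2, 9.80, 1.99 and 29.2 CPM in retinal against 0.428, 0.609, 1.09 and 0.507 CPM in brain microglia (log2 fold change 4.51, SE 0.65, edgeR adjusted p = 2.11e-04). Pfkp differed by a log2 fold change of 3.56 (edgeR adjusted p = 4.57e-06) and Eno2 by 4.40 (edgeR adjusted p = 0.00121), which became 6.08 without brain replicate 3. Epas1 differed by 4.23 and Ndrg1 by 3.57, which became 3.28 and 2.76 without retinal replicate 4. For Ndrg1 the value became 5.58 without brain replicate 4. For Epas1 the fit gave 8.56 without brain replicate 2. The remaining brain libraries had 0 counts of Epas1, so the size of that last value is not measured. Pkm was lost without retinal replicate 4 or, in turn, brain replicates 1 or 3 (log2 fold change 0.39 to 0.45, edgeR adjusted p 0.0778 to 0.0868, in place of 0.50 and 0.0254). Ddit4 was lost without retinal replicates 1, 2 or 3 or, in turn, brain replicates 2 or 3 (log2 fold change -3.11 to -1.97, edgeR adjusted p 0.0596 to 0.146, in place of -2.96 and 0.0321).

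RNA of rod photoreceptors varied between the retinal libraries. All 14 rod markers had counts there and summed to 3798, 2365, 837 and 7927 CPM, against at most 4.58 CPM in any other library. The sum of 7 neuron markers had the same order, with 120.3, 70.7, 27.3 and 219.9 CPM, so rod and neuron RNA cannot be told apart here. Of the 36 members, 8 followed the order of the rod sum over the 4 retinal libraries, namely Slc2a1, Hk1, Pfkp, Aldoc, Eno2, Slc16a1, Epas1 and Ndrg1. That is 22.2%, against 7.27% of all genes tested. Aldoc was highest in replicate 4 and lowest in replicate 3, as were the rod markers. Without retinal replicates 1 and 4, the 2 with most rod RNA, the log2 fold change of Aldoc fell to 3.16 (edgeR adjusted p = 0.00382), that of Pfkp to 2.90 and that of Eno2 to 3.72. The calls of Epas1 and Ndrg1 ended, at 2.53 (adjusted p = 0.150) and 2.22 (adjusted p = 0.0592), as did those of Pkm and Ddit4. In the comparison with cornea macrophages, Aldoc went from a log2 fold change of -1.84 to -0.49 without the same libraries, and its call was lost (edgeR adjusted p = 0.482). The remaining share of rod RNA in replicates 2 and 3 was not tested.

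**Figure D5:**
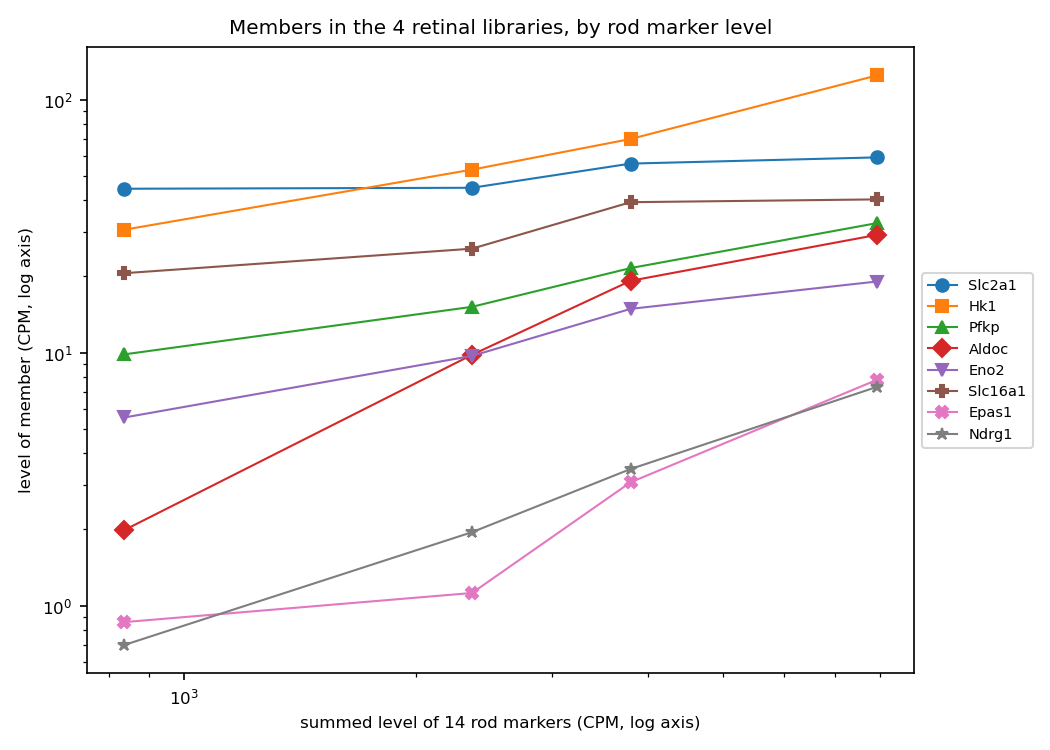
Level in CPM of the 8 members that follow the rod markers (vertical, logarithmic) against the summed CPM of 14 rod markers (horizontal, logarithmic) in the 4 retinal libraries, with lines joining the points of a gene. The rod sum runs from 837 to 7927 CPM, and Aldoc from 1.99 to 29.2 CPM.

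The retinal libraries were sequenced in lane 2 and the brain libraries in lane 3, as numbered in the table, so no comparison within a lane exists for these populations. With lane as a term, which rests on the cornea and monocyte libraries present in both lanes, 4 members were higher in retinal microglia and 1 lower, where 2.01% and 0.933% of all genes were. By total counts the numbers were 14 and 1, against 8.58% and 1.86% of all genes. Gpi1, Eno2, Pkm, Ldha and Epas1 lost their calls with lane as a term. Slc2a6, Pfkp and Aldoc passed under every setting tried.

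Further calls were lost when single libraries were left out, in part with little change in the log2 fold change. Between cornea macrophages and retinal microglia, the call of Gpi1 was lost without cornea replicate 3 or, in turn, retinal replicate 1 (log2 fold change 0.29 to 0.31, edgeR adjusted p 0.0529 to 0.0636, in place of 0.35 and 0.0200). In retinal microglia against monocytes, Hk1 was lost without retinal replicate 2 or, in turn, monocyte replicate 4 (log2 fold change -0.74 to -0.69, edgeR adjusted p 0.0532 to 0.0667, in place of -0.80 and 0.0219). For Gapdh the loss came without retinal replicates 1, 3 or 4 or, in turn, monocyte replicates 2 or 4 (log2 fold change 0.74 to 0.84, edgeR adjusted p 0.0643 to 0.0928, in place of 0.84 and 0.0379). Epas1 was lost without retinal replicates 1 or 4 or, in turn, monocyte replicates 1, 2 or 3 (log2 fold change 1.19 to 2.18, edgeR adjusted p 0.0577 to 0.239, in place of 2.14 and 0.0394). The hydroxylase Egln1 was lost without retinal replicates 1, 3 or 4 or, in turn, monocyte replicates 2 or 4 (log2 fold change -0.45 to -0.31, edgeR adjusted p 0.0573 to 0.148, in place of -0.42 and 0.0448). Its relative Egln3 was lost without retinal replicates 1, 2 or 3 or, in turn, monocyte replicates 1, 2 or 3 (log2 fold change 1.74 to 2.27, edgeR adjusted p 0.0514 to 0.114, in place of 2.14 and 0.0442). Of the 141 calls among 216 member comparisons, 111 passed under every alternative tried and 30 were lost at least once.

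The rest of both pathways was followed with a list of 93 further genes, of which 91 were in the table and 74 tested. In cornea macrophages 24 of the 74 were higher and 27 lower than in retinal microglia, 25 higher and 25 lower than in brain microglia, and 26 higher and 28 lower than in monocytes. As shares of the list these were 32.4% and 36.5% (background 30.9% and 35.1%), 33.8% and 33.8% (background 33.8% and 33.1%), and 35.1% and 37.8% (background 32.2% and 31.1%), shares near those of all genes. Retinal microglia had 8 higher and 5 lower than brain microglia (background 6.95% and 3.6%). Further HIF targets were higher in cornea macrophages in 13, 14 and 16 of 25 tested against retinal microglia, brain microglia and monocytes, and lower in 4, 3 and 3, where 30.9%, 33.8% and 32.2% of all genes were higher and 35.1%, 33.1% and 31.1% lower. Vegfa, the angiogenic growth factor, stood at 335, 154, 155 and 136 CPM in cornea macrophages and at most 3.12 CPM in any other library (log2 fold change 6.44, SE 0.52, edgeR adjusted p = 8.83e-09 against retinal microglia). Bhlhe40, a repressor induced by stress and low oxygen, stood at 282 ± 13.6 CPM in cornea macrophages and 8.62 ± 3.69 CPM in monocytes (log2 fold change 5.00, SE 0.49, edgeR adjusted p = 1.16e-07). Cxcr4, a chemokine receptor, stood at 60.5 ± 10.5 CPM in cornea macrophages and 0.671 ± 0.183 CPM in retinal microglia (log2 fold change 6.51, SE 0.40, edgeR adjusted p = 2.88e-10). Bhlhe41, the relative of Bhlhe40, was highest in retinal microglia, at 383 ± 40.4 CPM, and stood at 213 ± 11.0 CPM in brain microglia and 0.135 ± 0.0638 CPM in monocytes.

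The transcript of a fructose transporter separated microglia from the other populations. Slc2a5, the fructose transporter GLUT5, stood at 690.0, 632, 694 and 459 CPM in microglia of the retina and 975, 884, 1117 and 1010.2 CPM in those of the brain. Cornea macrophages held 0.906, 0, 0 and 0.133 CPM and monocytes 0.0451, 0, 0.0912 and 0 CPM. Microglia did not overlap with the others (log2 fold change -12.16, SE 0.46, edgeR adjusted p = 7.82e-13 for cornea macrophages against brain microglia). Anxa2, a membrane-binding protein, ran the other way, with 1674 ± 205 CPM in monocytes and 754 ± 60.0 CPM in cornea macrophages against 16.0 ± 7.32 CPM in retinal microglia and 0.942 ± 1.11 CPM in brain microglia. Vldlr, a lipoprotein receptor, had counts in the retinal libraries alone, with 20.0, 3.51, 0.699 and 23.4 CPM, in the order of their rod markers. Rora, a nuclear receptor, stood at 135 ± 17.2 CPM in cornea macrophages and 7.42 ± 1.91 CPM in monocytes (log2 fold change 4.19, SE 0.47, edgeR adjusted p = 5.55e-07), and Sesn2, a stress-induced inhibitor of mTOR signalling, at 9.31 ± 0.598 CPM in microglia of the retina and 18.6 ± 3.07 CPM in those of the brain (edgeR adjusted p = 0.00159). Pdk4, a kinase of pyruvate dehydrogenase, was not tested, with at most 0.154 CPM in any library.

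In the pentose phosphate branch, which yields NADPH and ribose, 6 of 8 genes were lower and none higher in brain microglia than in monocytes (background 27.4% and 28.5%), and 7 were lower and 1 higher in cornea macrophages than in monocytes (background 31.1% and 32.2%). Retinal microglia had 5 of 8 lower and 1 higher than monocytes (background 27.1% and 32.2%). The pyruvate list had 9 of 14 tested genes lower in cornea macrophages than in brain microglia and 2 higher (background 33.1% and 33.8%).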

How the data were processed

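RNA sequencing counts of 16 libraries in 4 populations were taken from 1 deposited table. Per the file headers it holds whole-number counts per gene for each library, as the authors' featureCounts run wrote them, and the length of each gene model in bases, which has another unit than a count (other). Per the submitters' processing notes CASAVA 1.8.2, Subread, featureCounts and limma were used with the build GRCm38.p4. The treatment of reads with several matches, the strand setting and the library kit were not given in the sources used here, since the extraction text in the labels describes brain tissue of another mouse line.

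Groups follow the source name of each sample. Lane numbers were read from the column names of the table, per the file headers. Counts were tested as deposited with edgeR 4.0.16 in R 4.3.3: filterByExpr with a minimum count of 10, TMM factors, 1 quasi-likelihood fit over all 16 libraries with population as the only factor, 6 pairwise tests and Benjamini-Hochberg adjustment over the 15754 genes tested, with a threshold of 0.05. Levels are CPM of the TMM-scaled library size, and isozyme shares use counts per base of gene model. Where all libraries of a population had 0 counts, a fold was computed against 3 counts over that population as a bound, which covers counting error only. The fit was tested on simulated data before use. Alternatives were total-count scaling, no filter, the 8 libraries compared alone, lane as a term, a block on shared title ranges, DESeq2 1.42.0, and leaving out libraries.

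Members, pathway lists and markers were chosen with earlier results of these data known. Values in every library are given for members with a called change of at least 2-fold in 3 or more comparisons. Of the other pathway genes, at most 4 per comparison are named, the called genes of largest fold change that reached 5 CPM in 1 population without overlap, plus Vegfa, Slc2a5 and Pdk4. Gene positions come from GENCODE vM21, windows of 50 bases from its transcripts and promoter sequences from RefSeq on GRCm38.p6. Promoters were shown for the most upstream start, when at most 30 bases lay inside the annotated gene. Protein sequences were not used here. Depth was 8677418 to 21756558 counts per library.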

Additional observations from a re-analysis of the deposited data

Results flagged for a closer look

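In 6 of 135 sets of 4 libraries with a mean of at least 1 CPM, 1 library lay far from the other 3 for its gap relative to the range of the set. Chance alone marks about 1 in 20 such sets, or a like number. Aldoa stood at 561 CPM in cornea replicate 1, against 474 to 481 CPM in the other cornea libraries, and at 453 CPM in monocyte replicate 3, against 538 to 550.0 CPM. Tpi1 stood at 41.1 CPM in brain replicate 1, against 51.7 to 53.2 CPM. In retinal microglia, Pgam1 reached 25.2 CPM in replicate 4 against 20.7 to 20.8 CPM, Ldhb 189 CPM in replicate 3 against 128 to 138 CPM, and Bnip3 50.9 CPM in replicate 2 against 42.0 to 42.6 CPM.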

How the results depend on the processing

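Of 141 calls among 216 member comparisons, 111 passed the threshold with the same direction under every alternative tried. Scaling by total counts reversed 8 values of cornea macrophages: Gpi1 (-0.45 on the log2 scale), Aldoa (-0.33) and Ldha (-0.66) against retinal microglia, Pgam1 (-0.54) against brain microglia, and Hk2 (-0.59), Pgk1 (-0.48), Pkm (-0.65) and Ldha (-0.57) against monocytes. Without monocyte replicates 1 and 2, Slc2a3 reversed to 1.57 in retinal microglia and 1.66 in brain microglia. This setting, and leaving out retinal replicates 1 and 4, were chosen after seeing the data. The members higher in retinal than in brain microglia numbered 9, 14 by total counts and 4 with lane as a term. The 1 member lower there became 2 with DESeq2, 0 without retinal replicates 1 and 4, and 0 to 1 when single libraries were left out. The cause was not tested, beyond the construction of each alternative. Replicate numbers follow the order of the samples and pair nothing, but replicates 3 and 4 of brain microglia and of monocytes share number ranges in their titles (4 to 6 and 7 to 9), with no label saying what they count. With that range as a replicate block, also chosen after seeing the data, 10 members were higher and 15 lower in brain microglia than in monocytes, as without it, and no call was lost. The difference between the 2 ranges had a correlation of 0.0227 across 15754 genes, which are not independent, between the populations. No other populations could be paired. Low counts limit Epas1, Egln3, Ddit4, Pfkm and Gapdh. The depth of 8677418 to 21756558 counts sets the floor behind the bounds of Adm and Eno2.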

Other observations

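Further genes of both pathways, chosen after their values were seen, are given here as levels (mean ± SD, n = 4). Plin2, a coat protein of lipid droplets, stood at 3271 ± 276 CPM in cornea macrophages, 183 ± 16.6 in monocytes, 47.3 ± 6.75 in retinal and 48.4 ± 5.61 in brain microglia (log2 fold change 4.16, SE 0.14, edgeR adjusted p = 2.80e-13 for cornea macrophages against monocytes). P4ha1, a collagen prolyl hydroxylase and HIF target, had another order, with 374 ± 51.9 CPM in brain microglia and 218 ± 38.3 CPM in retinal microglia, above the 139 ± 12.5 CPM of cornea macrophages and the 43.6 ± 3.99 CPM of monocytes. Vhl, which targets hydroxylated HIF for destruction, stood at 25.4 ± 4.58 CPM in cornea macrophages and 115 ± 15.1 CPM in brain microglia (log2 fold change -2.18, SE 0.15, edgeR adjusted p = 8.42e-10). Egln2, a further HIF hydroxylase, was higher in cornea macrophages, at 100.0 ± 20.6 against 49.7 ± 13.9 CPM in brain microglia (log2 fold change 1.01, SE 0.20, edgeR adjusted p = 3.39e-04), unlike Egln1.

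In the pentose phosphate branch, G6pdx, its first enzyme, stood at 208 ± 23.2 CPM in monocytes and 51.2 ± 4.21 CPM in cornea macrophages (log2 fold change -2.02, SE 0.15, edgeR adjusted p = 2.60e-09). Tkt, a transketolase, was also highest in monocytes, at 544 ± 50.0 against 203 ± 26.6 CPM in cornea macrophages (log2 fold change -1.42, SE 0.14, edgeR adjusted p = 1.14e-07). Pgd, the dehydrogenase of a later step, was instead highest in cornea macrophages, at 567 ± 78.1 against 381 ± 34.0 CPM in monocytes (log2 fold change 0.57, SE 0.13, edgeR adjusted p = 0.00107). The 6 cycling markers summed to 969.7 to 1353 CPM in monocytes and 8.33 to 15.6 CPM in brain microglia, and their part in these levels was not tested.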
